A study of Mus musculus with 4 samples.

Results

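Epithelial-mesenchymal transition is the change by which a cell of an epithelial sheet gives up its junctions and takes on the contractile and migratory features of a mesenchymal cell. Transcription factors of the Snail, Zeb and Twist families drive it and repress *Cdh1*, the gene for E-cadherin, while N-cadherin, fibronectin, vimentin and smooth muscle actin are read as signs of the mesenchymal state. In the lens it is known from the fibrotic change of epithelial cells after injury or cataract surgery, which TGF-beta can induce. Some of these genes are also part of normal lens biology, since vimentin is an intermediate filament protein of lens cells and lens cells are joined by E- and N-cadherin. S100A4, under its other name FSP1, is widely used as a marker of the transition, and its gene is the one deleted in the mice studied here.

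The genes described are 10 commonly used markers, found by their symbol: the transcription factor genes *Snai1*, *Snai2*, *Zeb1*, *Zeb2* and *Twist1*, the cadherin genes *Cdh1* and *Cdh2*, the cytoskeletal genes *Acta2* and *Vim*, and the matrix gene *Fn1*. All 10 were among the 14924 genes of the deposited table, and all 10 passed the filter on low values. RNA-seq libraries were made from lenses of 1-month-old S100A4 null (S100A4-/-) mice, which lack *S100a4* in every tissue, and of wild-type (WT) littermates, both on a C57BL/6J background. There were 2 libraries per genotype, each from 6 to 12 pooled lenses, so that a value belongs to a pool and not to an animal, and both sexes were used in the study without a label for each pool. The S100A4-/- libraries held 81602367 and 74108017 reads on genes, and the WT libraries 70253985 and 68038158. A value is the number of reads on a gene divided by 1 size factor per library, so that a single read counted as 0.856 or 1.01 (S100A4-/-) and 1.04 or 1.09 (WT). Whole lenses hold epithelial and fiber cells together, and in such bulk RNA fewer cells of a type cannot be told apart from less RNA per cell.

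The libraries matched their labels for genotype and tissue. The targeted gene *S100a4*, on chromosome 3 of the GRCm38 build from 90603771 to 90606045, had values of 14.6 and 18.2 in S100A4-/- against 14420 and 14385 in WT. The log2 fold change was -9.70 (SE 0.10, limma, Benjamini-Hochberg adjusted p = 6.42e-41). Markers of lens fibers and lens epithelium were abundant in all 4 libraries, with *Cryaa*, the alphaA-crystallin gene, the most abundant fiber marker and *Pax6*, a transcription factor of the eye, the most abundant epithelial one. None of the 9 fiber and none of the 5 epithelial markers passed the test in either direction (limma), with median log2 fold changes of -0.06 and 0.07 and no gene at 0.

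The regulatory sequence shown is that of the markers whose promoters hold an E-box, the 6-letter element CANNTG that Snail, Zeb and Twist proteins are known to bind. RefSeq promoters of GRCm38.p6, 250 bases before to 50 bases after a gene's start, were matched by symbol for *Vim*, *Acta2*, *Zeb2*, *Snai1* and *Twist1*, 5 of the 10 genes. *Acta2* and *Snai1* hold the letters, and *Snai1* alone of the 5 holds CACCTG, the form that Snail and Zeb proteins prefer. The 250 bases before the RefSeq start are printed, 5′ to 3′ on the strand of the gene, with every CANNTG in capitals.
*Acta2* promoter, chr19:34255374-34255623, minus strand: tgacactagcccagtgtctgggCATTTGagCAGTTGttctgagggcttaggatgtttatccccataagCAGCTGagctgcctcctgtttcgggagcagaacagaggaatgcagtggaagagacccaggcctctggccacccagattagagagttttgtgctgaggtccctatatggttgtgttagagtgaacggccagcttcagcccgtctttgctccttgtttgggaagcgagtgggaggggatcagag
*Snai1* promoter, chr2:167537945-167538194, plus strand: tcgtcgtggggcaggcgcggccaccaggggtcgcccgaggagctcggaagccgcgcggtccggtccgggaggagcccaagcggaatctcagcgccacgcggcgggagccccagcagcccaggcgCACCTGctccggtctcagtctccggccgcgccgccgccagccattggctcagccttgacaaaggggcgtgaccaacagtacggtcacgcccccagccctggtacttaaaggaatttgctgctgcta
The 3 E-boxes of *Acta2* begin 228, 220 and 182 bases before the RefSeq start, and that of *Snai1* begins 126 bases before it. In GENCODE M21, which gave the gene coordinates, *Acta2* starts at 34255590 on the minus strand. Most of the printed *Acta2* window thus lies inside the gene by that annotation. Both strands were covered, since CANNTG reads as CANNTG on the other strand, and CACCTG was searched with its reverse complement CAGGTG. Of all 32851 promoters of this length, 72.3% hold CANNTG and 20.2% hold CACCTG or CAGGTG. The windows of *Vim*, *Zeb2* and *Twist1* hold neither set of letters. A match in these letters is a description of the sequence and not of a bound site. The 2 genes printed lie far apart in level in the lens, as given next, with *Acta2* among the most abundant transcripts and *Snai1* among the rare ones.

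Levels were compared between genes after division by the exonic length of the gene in kilobases (kb), from GENCODE M21. In WT lenses the 10 markers spanned from 18733 ± 129 (SD, n = 2) per kb for *Vim* to 3.94 ± 0.13 (SD, n = 2) per kb for *Twist1*. *Acta2* followed *Vim* at 7689 ± 147 (SD, n = 2) per kb, and the cadherins came next, with *Cdh2* at 932 ± 16.9 (SD, n = 2) and *Cdh1* at 539 ± 7.82 (SD, n = 2) per kb. *Vim* exceeded 98.7% and *Acta2* exceeded 98.3% of all genes tested in level per kb. The Zeb genes stood above 66.5% (*Zeb1*) and 57.2% (*Zeb2*) of all genes tested, *Zeb1* at 145 ± 12.4 (SD, n = 2) and *Zeb2* at 94.8 ± 0.76 (SD, n = 2) per kb. *Snai1* at 16.9 ± 7.56 (SD, n = 2), *Fn1* at 7.503 ± 0.12 (SD, n = 2), *Snai2* at 5.59 ± 2.06 (SD, n = 2) and *Twist1* formed the low end, and of all genes tested 9.42% lay below *Twist1*. The level of *Snai2* differed from those of its neighbours in this order, *Fn1* and *Twist1*, by less than its own SD between the WT libraries. All other neighbours in the order differed by more than the larger of their SDs. With the length of the longest transcript in place of all exons, all 10 genes kept their place. In S100A4-/- lenses the order of the first 8 genes was the same, and *Twist1* stood above *Snai2*.

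**Figure D1:**
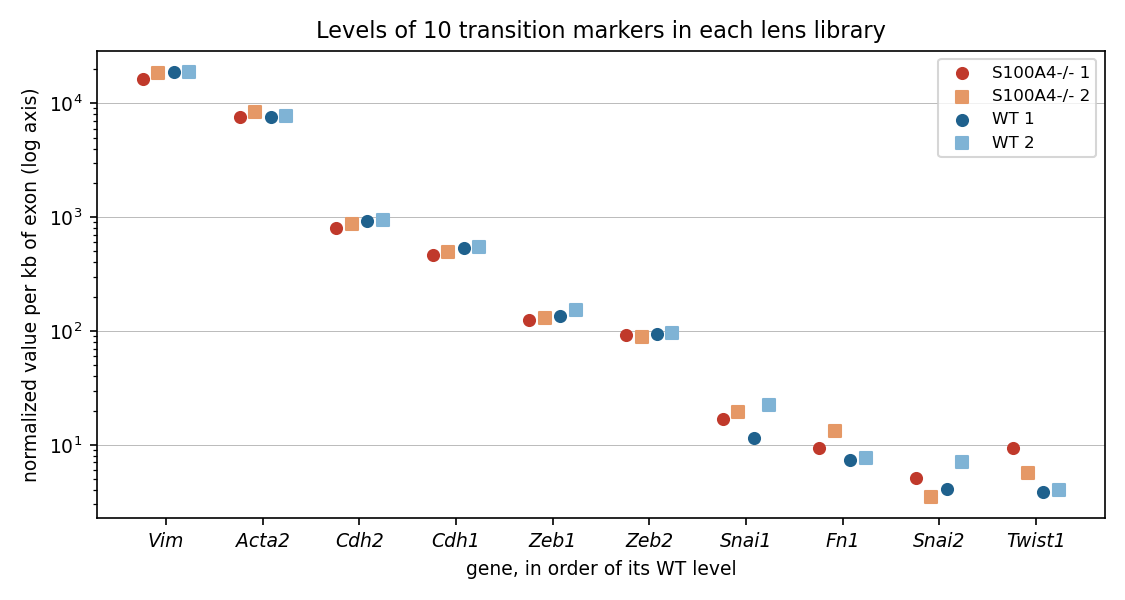
Normalized value per kb of exon (log axis) of the 10 markers, in order of their WT level, with 1 point per library, circles for replicate 1 and squares for replicate 2 of S100A4-/- (red, orange) and WT (dark and light blue). *Vim* and *Acta2* lie highest and *Snai2* and *Twist1* below 10 in all 4 libraries.

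S100A4-/- lenses were compared with WT lenses gene by gene. None of the 10 genes passed the study's threshold of a 2-fold change with an adjusted p of at most 0.05 (limma), where 3.72% of the 14780 genes tested did so, and none passed it with edgeR or DESeq2. With no fold minimum, 1 of the 10 passed, *Cdh2*, which was lower in S100A4-/-, and 6.96% of all genes passed by this rule. An unadjusted p under 0.05 (limma) was found for 5 of the 10 markers and for 2611 of the 14780 genes tested, a smaller share. The median log2 fold change of the 10 was -0.08, and that of all genes was -0.01. In 7 of the 10 the groups did not overlap, 5 being lower and 2 higher in S100A4-/-. Over all genes the groups did not overlap in 46.9%, with 23.2% lower and 23.7% higher. For 8 of the 10 the 95% interval of the fold change stayed within 2-fold in both directions, as it did for 77.1% of all genes. The exceptions were *Snai2* and *Twist1*, the markers with the fewest reads. All fold changes are on the log2(value + 1) scale, which understates changes of genes with few reads. With pools as replicates and 2 per group, a p-value does not measure the spread between animals. The limma fit drew the spread of a gene largely from a trend over genes of similar level, and not from its own pools alone. Without this trend the adjusted p of *Cdh2* was 0.503 (limma).

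**Figure D2:**
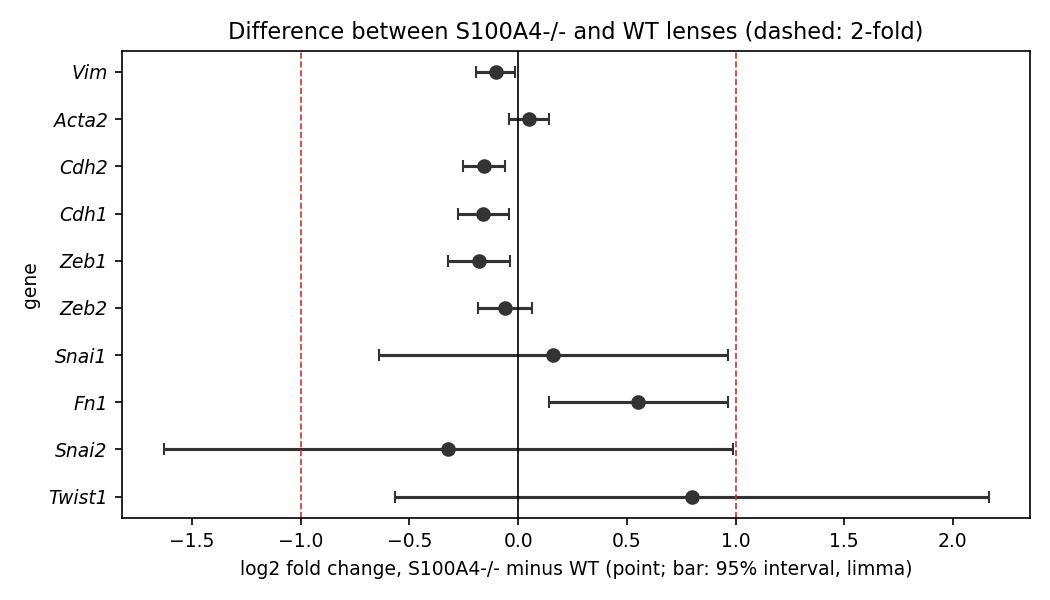
Log2 fold change of each marker, S100A4-/- minus WT (point), with its 95% interval from limma (bar). Dashed lines mark a 2-fold change. Intervals are narrow for the 6 abundant genes and wide for *Snai1*, *Fn1*, *Snai2* and *Twist1*, and those of *Snai2* and *Twist1* reach beyond a dashed line.

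Of the transcription factor genes, *Zeb1* and *Zeb2* were the abundant ones, with 1314 to 1505 and 1737 to 2150 reads per library. *Zeb1* (chromosome 18, 5591860 to 5775467) encodes a zinc finger repressor of E-cadherin. Its normalized values were 1289 and 1332 in S100A4-/- and 1397 and 1578 in WT. Both S100A4-/- libraries lay below both WT libraries, and the gap was smaller than the distance between the WT libraries. The log2 fold change was -0.18 (SE 0.07, 95% interval -0.32 to -0.04, limma, adjusted p = 0.128). It was -0.09 (adjusted p = 0.720) without the second WT library and -0.27 (adjusted p = 0.0464) without the first. *Zeb2* (chromosome 2, 44983632 to 45117395) encodes the related factor, also called SIP1, which is known to act in early lens development. Its values were 1841 and 1782 in S100A4-/- and 1881 and 1902 in WT. The groups did not overlap but lay close together, with a log2 fold change of -0.06 (SE 0.06, 95% interval -0.19 to 0.06, limma, adjusted p = 0.664). Genes on the other strand overlap both, and the sources used here do not say whether the counting used strand. *Zeb2os*, over *Zeb2*, had values of 203 and 152 in S100A4-/- and 253 and 264 in WT (log2 fold change -0.55, SE 0.15, limma, adjusted p = 0.0125), and *Gm10125*, which overlaps *Zeb1*, lay between 21.9 and 30.8 in the 4 libraries. The same limit holds for *Cdh2*, which *Gm15485* overlaps on the other strand, and for *Fn1*, which *Apol7d* overlaps; neither overlapping gene was analysed here.

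The genes of the Snail family and *Twist1* had few reads. *Snai1* (chromosome 2, 167538195 to 167542814), the gene of Snail and a direct repressor of *Cdh1*, was read 32 and 31 times in S100A4-/- lenses and 18 and 33 times in WT lenses. The first WT library was the lowest and the second the highest of the 4, so the groups overlapped. The log2 fold change was 0.16 (SE 0.40, 95% interval -0.64 to 0.97, limma, adjusted p = 0.890), and it reversed to -0.29 without the first WT library and to -0.12 with quantile normalization. *Snai2* (chromosome 16, 14705852 to 14709385), the gene of Slug, was covered by 12 and 7 reads in the S100A4-/- pools and by 8 and 13 in the WT pools. The groups overlapped, and the log2 fold change was -0.32 (SE 0.65, 95% interval -1.63 to 0.99, limma, adjusted p = 0.860), reversing to 0.031 without the second WT library. *Twist1* (chromosome 12, 33957671 to 33959829), a basic helix-loop-helix factor of mesenchyme, was covered by 18 and 9 reads in the S100A4-/- pools and by 6 in each WT pool. Both S100A4-/- libraries were above WT, with a log2 fold change of 0.80 (SE 0.67, 95% interval -0.57 to 2.16, limma, adjusted p = 0.597). It was 0.45 without the first S100A4-/- library, 1.15 without the second and 0.35 with quantile normalization, with adjusted p of 0.845, 0.496 and 0.836. It reached the filter minimum of 10 through the first S100A4-/- library alone. At this depth a 2-fold difference was not detectable for *Snai2* or *Twist1*. For *Snai1* the interval stayed within 2-fold, but with its SE of 0.40 a fold change of just 2-fold would not have passed either. The floor of 3 reads, which allows for counting error alone, equals a value of 2.57 or 3.04 in S100A4-/- and of 3.13 or 3.28 in WT.

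The cadherin genes were both lower in the 2 S100A4-/- libraries than in the 2 WT libraries, and *Cdh2* passed the test with no fold minimum. *Cdh2* (chromosome 18, 16588877 to 16809246), the N-cadherin gene, had normalized values of 6520 and 6966 in S100A4-/- and 7422 and 7615 in WT. Both S100A4-/- values lay below both WT values, and the mean was 89.7% of the WT mean. The log2 fold change was -0.16 (SE 0.05, 95% interval -0.25 to -0.06, limma, adjusted p = 0.0332). The adjusted p was 0.0502 with edgeR, 0.0826 with DESeq2 and 0.298 with limma on libraries scaled to equal totals, and with limma and a library left out it lay between 0.0559 and 0.324, so that the call was lost whichever library was dropped. Reads from its antisense partner *Gm15485* cannot be told apart if strand was not used. *Cdh1* (chromosome 8, 106603351 to 106670246), the E-cadherin gene, had values of 2136 and 2277 in S100A4-/- and 2438 and 2489 in WT. Its groups did not overlap, the mean was 89.6% of the WT mean, and the log2 fold change was again -0.16 (SE 0.06, 95% interval -0.28 to -0.04, limma, adjusted p = 0.104). The epithelial and the mesenchymal cadherin thus had fold changes of the same sign and nearly the same size. For each of them, the first S100A4-/- library was the lower one of its group and accounted for part of the distance, with log2 fold changes of -0.11 for both genes without it.

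*Vim* (chromosome 2, 13573927 to 13582826), the vimentin gene and the marker with the highest level, had values of 78205 and 87448 in S100A4-/- and 88420 and 89285 in WT. The second S100A4-/- library was close to the WT libraries and the first was below all others. The log2 fold change was -0.10 (SE 0.04, 95% interval -0.19 to -0.01, limma, adjusted p = 0.188). Without the first S100A4-/- library it was -0.02, and without the second -0.18. The same library had the lowest summed fiber marker level, 19835872 against 21854946 in the second S100A4-/- library and 21730281 and 22047169 in WT, and the part of this in the *Vim* value was not tested. Vimentin is also a filament of Müller glia of the retina, and 3 of the 5 glial markers rose past the 2-fold threshold, the most abundant being *Glul*, for glutamine synthetase. The summed value of the glial markers was 6752 and 6599 in S100A4-/- and 2628 and 2851 in WT, with none at 0, and their part in the *Vim* value was not tested.

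*Acta2* (chromosome 19, 34241090 to 34255590) encodes alpha smooth muscle actin, the usual marker of the contractile fibroblast-like cells of a fibrotic lens. It had normalized values of 16610 and 18375 in S100A4-/- and 16656 and 17114 in WT. The groups overlapped, and the log2 fold change was 0.05 (SE 0.05, 95% interval -0.04 to 0.14, limma, adjusted p = 0.634), reversing to -0.024 without the second S100A4-/- library. As a percentage of the WT level the interval runs from -2.89% to 10.2%, and after that of *Vim* it is the narrowest on the log2 scale among the 10. Other smooth muscle genes had lower values, in differing degrees. *Myh11*, the smooth muscle myosin heavy chain gene, had values of 8.35 and 6.57 in WT and 29.97 and 38.5 in S100A4-/-. *Tagln*, for transgelin, had values of 5.22 and 4.38 in WT and 14.6 and 9.12 in S100A4-/-. *Myl9*, a myosin light chain gene, had values of 330 and 286 in WT and 372 and 372 in S100A4-/-. Of 8 smooth muscle and pericyte markers, 5 were analysed here, with none at 0. *Myh11* and *Cspg4* rose past the 2-fold threshold, *Rgs5* rose by less, from 105 and 113 to 212 and 176, and *Pdgfrb*, the most abundant, did not pass. *Myh11* and *Tagln* reached the filter minimum through S100A4-/- libraries alone. The summed value of the 5 smooth muscle and pericyte markers was 2550 and 2548 in S100A4-/- and 2437 and 2476 in WT, nearly all of it from *Pdgfrb*. Actin genes are near-identical in places and reads that fit several loci were not counted, so their values are uncertain. Of the actin genes looked up after the values were seen, *Actb* had values between 27294 and 30903 in the 4 libraries, and *Actg1* between 18.6 and 64.2.

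*Fn1* (chromosome 1, 71585520 to 71653200), the fibronectin gene, is the matrix marker of the set. It had normalized values of 109 and 153 in S100A4-/- and 86.7 and 88.7 in WT, from 127 and 151 reads against 83 and 81. Both S100A4-/- libraries were higher than both WT libraries, and the spread between the former was larger than the smallest gap between the groups. The log2 fold change was 0.55 (SE 0.20, 95% interval 0.14 to 0.96, limma, adjusted p = 0.105). Without the second S100A4-/- library it was 0.31, and without the first 0.80. *Fn1* was thus the marker with the largest fold change among those with more than 50 reads in each library, and it did not pass the test.

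Other genes of the transition were taken from 4 lists of 67 genes, of which 56 were analysed here. By the 2-fold threshold 7 of the 56 were higher in S100A4-/- and none was lower, and with no fold minimum 14 were higher and none was lower (limma). The corresponding shares of all genes tested were 3.65% higher and 0.0744% lower by the threshold and 5.62% higher and 1.33% lower with no fold minimum. The median log2 fold change of the 56 was 0.22. These counts and medians include genes that reached the filter minimum through the S100A4-/- libraries alone, namely *Postn*, *Spp1* and *Ocln* among the 7 and *Tnc*, *Lox*, *Tagln*, *Gsc*, *Cldn3* and *Krt8* among the rest, and *Dsp*, which reached it through WT alone, so they are a description of the lists. Without the first S100A4-/- library 3 of the 7 passed the threshold (*Cldn1*, *Fbn1* and *Vcan*), and without the second 2 did (*Fbn1* and *Vcan*).

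Most of these calls were in the list of mesenchymal matrix genes. Of its 23 genes, 4 rose past the 2-fold threshold and 10 passed with no fold minimum, all of them higher, with a median log2 fold change of 0.43. *Vcan*, the gene of the proteoglycan versican, rose from 219 and 239 in WT to 1054 and 958 in S100A4-/- (log2 fold change 2.13, SE 0.10, limma, adjusted p = 2.32e-19). *Fbn1*, for fibrillin-1 of the zonule microfibrils, rose from 734 and 966 to 3258 and 2890 (log2 fold change 1.86, SE 0.08, limma, adjusted p = 3.31e-20). *Postn*, for periostin, had 8.35 and 4.38 in WT and 29.97 and 44.6 in S100A4-/- (log2 fold change 2.41, SE 0.52, limma, adjusted p = 0.00151). *Spp1*, for osteopontin, had no read in either WT library and values of 12.8 and 13.2 in S100A4-/-, at least 4.05-fold higher against the value of 3 reads per library (limma, adjusted p = 0.0270). *Postn* and *Spp1* reached the filter minimum through the S100A4-/- libraries alone. Smaller rises that passed with no fold minimum were those of *Ctgf*, the connective tissue growth factor gene (log2 fold change 0.37, limma, adjusted p = 0.000107), *Col5a1* (0.59, limma, adjusted p = 5.45e-05) and *Timp3*, a metalloproteinase inhibitor gene (0.21, limma, adjusted p = 0.00106). *Sparc*, the most abundant gene of the list, had values of 80682 and 79838 in S100A4-/- and 79798 and 78764 in WT, with a log2 fold change of 0.02 (limma, adjusted p = 0.877). Of the other fibrillar collagen genes, *Col1a2* rose (log2 fold change 0.34, limma, adjusted p = 0.00161). *Col1a1*, with values between 16.7 and 26.5 in the 4 libraries, had a log2 fold change of 0.30 (95% interval -0.58 to 1.17, limma, adjusted p = 0.793), and *Col3a1*, between 4.38 and 13.2, one of 0.43 (95% interval -1.02 to 1.87, limma, adjusted p = 0.828). With so few reads these intervals hold the fold change of *Col1a2*.

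The list of epithelial junction and identity genes had 2 calls in the same direction. *Cldn1*, for the tight junction protein claudin-1, rose from 29.2 and 47.1 in WT to 130 and 167 in S100A4-/- (log2 fold change 1.96, SE 0.25, limma, adjusted p = 1.99e-07). *Ocln*, for occludin, rose from 4.18 and 8.76 to 39.4 and 34.5 (log2 fold change 2.41, SE 0.52, limma, adjusted p = 0.00139). It too reached the filter minimum through the S100A4-/- libraries alone. The other 15 of the 17 genes analysed did not pass at either rule, the catenin gene *Ctnnb1* being the most abundant with values between 24339 and 24938 in the 4 libraries. *Epcam* had values of 163 and 151 in S100A4-/- and 136 and 178 in WT, with a log2 fold change of 0.01 (95% interval -0.33 to 0.35, limma, adjusted p = 0.987). The median log2 fold change of the list was 0.01.

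Of 11 mesenchymal cytoskeleton and adhesion genes, *Cdh11*, the gene of the mesenchymal cadherin-11, passed the 2-fold threshold. Its values were 68.5 and 63.8 in S100A4-/- and 19.8 and 33.9 in WT, and its log2 fold change was 1.32 (SE 0.32, limma, adjusted p = 0.00574). It did not pass the threshold with DESeq2, with quantile normalization, with limma without a trend, or without either S100A4-/- library or the first WT library. *Actn1*, for alpha-actinin-1, rose by less, with a log2 fold change of 0.36 (SE 0.07, limma, adjusted p = 0.000499). *Itgb1*, the most abundant, did not pass (log2 fold change -0.11, limma, adjusted p = 0.157), and the list's median was -0.03. None of the 5 other transition transcription factor genes passed at either rule, among them *Tcf3*, the most abundant, at -0.02 (limma, adjusted p = 0.911), and *Gsc*, which had no read in WT and values of 4.28 and 11.1 in S100A4-/-, the second of which alone reached the filter minimum. Since none of the 10 markers passed the 2-fold threshold, no genes were sought whose pattern was like theirs.

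**Figure D3:**
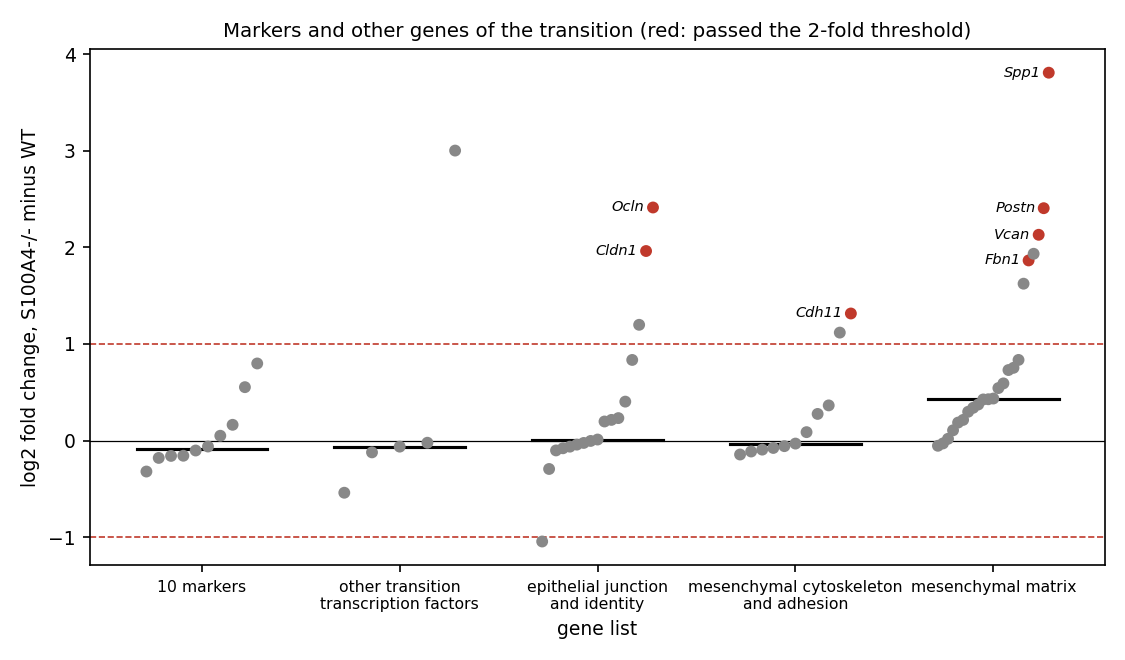
Log2 fold change, S100A4-/- minus WT, of each tested gene of the 10 markers and of the 4 other lists, with a black line at the median of a list, dashed lines at 2-fold, and in red with their names the genes past the 2-fold threshold. The medians other than that of the matrix genes (0.43) lie near 0, and all 7 red points are rises. The points of *Spp1* and *Gsc* are fitted values against WT libraries without reads and not lower bounds.

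Markers of cells outside the lens moved with genotype beside these lists. All 8 rod photoreceptor markers rose past the 2-fold threshold, the most abundant being *Gnat1*, for rod transducin, and their summed value was 9004 and 8618 in S100A4-/- against 2185 and 2318 in WT. All 5 pigment cell markers analysed, of 6, rose as well, with a summed value of 1177 and 1230 against 174 and 261 and *Dct*, a melanin synthesis gene, the most abundant. Of the 6 macrophage markers analysed, of 8, 3 rose past the threshold, with a summed value of 250.1 and 229 against 86.7 and 73.4, led by the receptor gene *Csf1r*. Of the 6 vascular endothelium markers analysed, of 7, only *Kdr*, the VEGF receptor gene, rose past it. The summed value of this list was 207 and 215 in S100A4-/- against 109 and 138 in WT. *Tek*, its most abundant gene, ran the other way, with 46.2 and 44.6 in S100A4-/- and 49.1 and 59.1 in WT, and did not pass (limma, adjusted p = 0.738). Groups did not overlap for 3 markers that were higher and for *Tek*, and they overlapped for *Pecam1* and *Cdh5*. The 5 fibroblast markers analysed, of 6, had a summed value of 4699 and 4602 in S100A4-/- and 4703 and 4813 in WT, *Pdgfra*, which lens epithelium also expresses, making up most of it (log2 fold change -0.14, limma, adjusted p = 0.108). The list's median log2 fold change was 0.34. *Col1a2* passed with no fold minimum, as given above, and *Dcn*, for decorin, had values of 19.7 and 6.08 in S100A4-/- and 3.13 and 4.38 in WT and did not pass (limma, adjusted p = 0.389). *Col1a1* and *Col3a1* had groups that overlapped. Of the surface epithelium markers, 2 of 4 analysed, *Aldh3a1* did not pass (log2 fold change -0.0041, limma, adjusted p = 0.986), and *Krt12*, a defining marker of corneal epithelium, was at 0 in the second WT library and between 5.22 and 9.42 in the others. No marker of the other lists named here was at 0. Of the markers that rose, *Kdr*, with values of 9.40 and 9.85 in WT and 74.5 and 60.8 in S100A4-/-, and the pigment cell gene *Mlana* reached the filter minimum through the S100A4-/- libraries alone. The rises of *Vcan*, *Fbn1*, *Postn*, *Spp1*, *Cldn1*, *Ocln* and *Cdh11*, and the higher values of *Fn1* and *Twist1*, ran in the same direction as these markers. The part of other cells in them was not tested. Of these genes, *Postn*, *Spp1*, *Ocln* and *Twist1* reached the filter minimum through S100A4-/- libraries alone, so their direction was partly set by the filter.

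**Figure D4:**
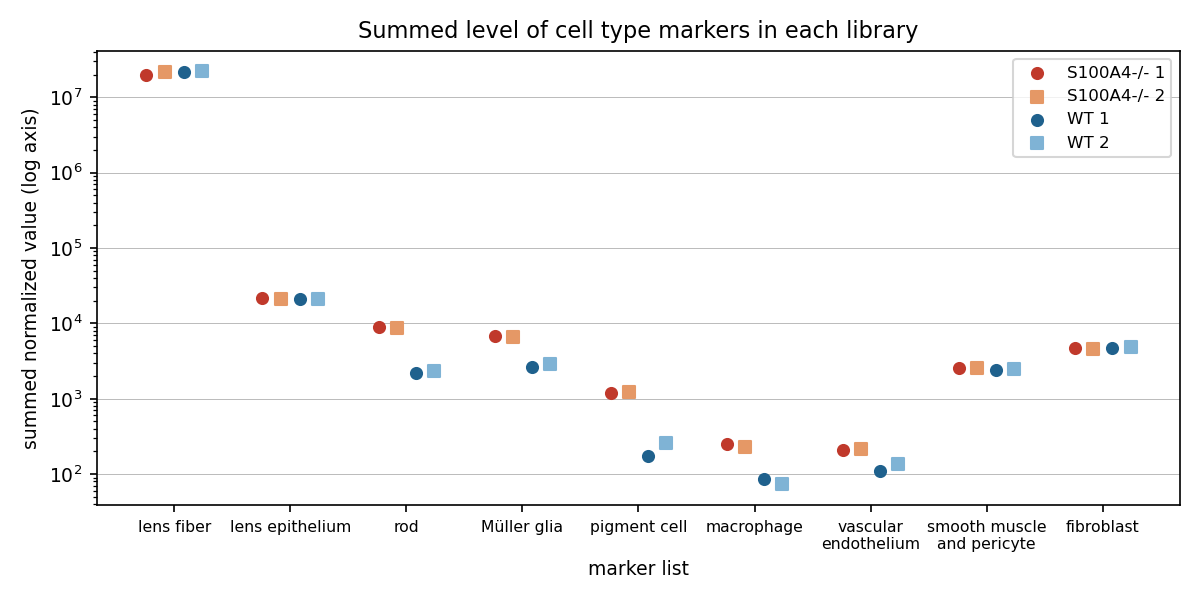
Summed normalized value (log axis) of the markers of 9 cell types in each library, circles for replicate 1 and squares for replicate 2 of S100A4-/- (red, orange) and WT (blue). Lens fiber, lens epithelium, smooth muscle and fibroblast sums of the 4 libraries lie close together, while rod, Müller glia, pigment cell, macrophage and vascular endothelium sums are higher in both S100A4-/- libraries than in both WT libraries. The smooth muscle sum is nearly all *Pdgfrb* and the fibroblast sum mostly *Pdgfra*, so they hide the other genes of these lists. The median log2 fold changes of these 2 lists were 1.12 and 0.34.

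The fold changes of the 10 markers were recomputed with other pseudocounts, filters, scalings and tests and without each of the libraries in turn. No marker passed the 2-fold threshold under any of these. *Vim*, *Cdh2*, *Cdh1*, *Zeb1*, *Zeb2*, *Fn1* and *Twist1* kept the sign of their fold change throughout. *Snai1*, *Snai2* and *Acta2* did not, and their reversals occurred where 1 library was left out and, for *Snai1*, also with quantile normalization.

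**Figure D5:**
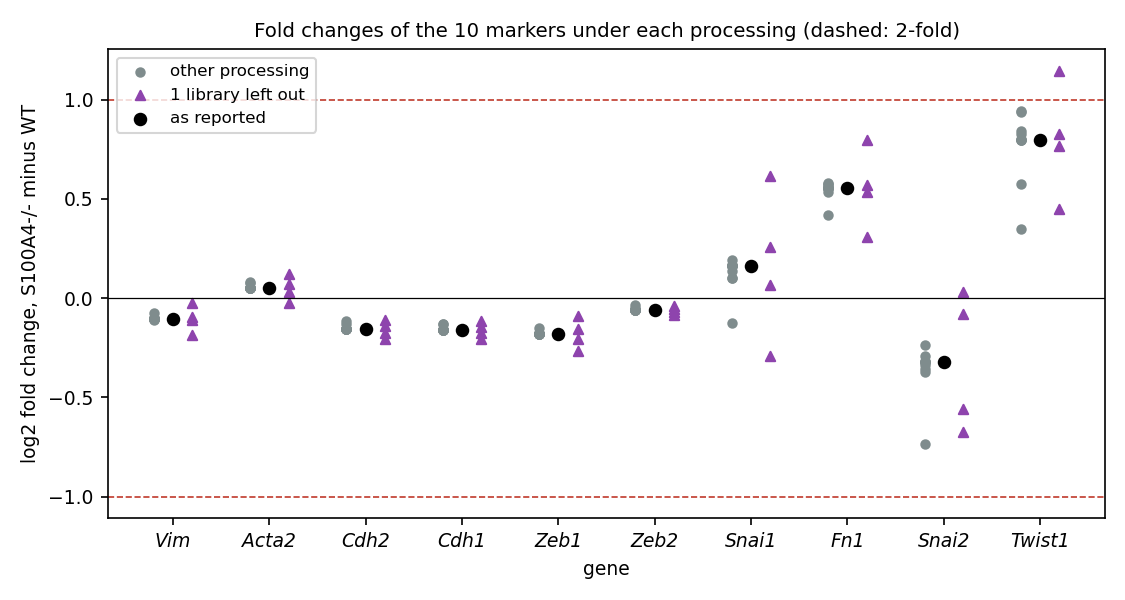
Log2 fold change of each marker, S100A4-/- minus WT, as reported (black), with other processing (grey circles) and with 1 library left out (purple triangles); dashed lines mark 2-fold. The points of the 6 abundant genes stay between -0.27 and 0.12, those of *Snai1* and *Snai2* cross 0, and *Twist1* passes a dashed line only with the second S100A4-/- library left out, at 1.15.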

How the data were processed

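Lens RNA of 2 S100A4-/- and 2 WT pools was sequenced as stranded mRNA libraries in 1 lane. The authors used Trim Galore for trimming, STAR for mapping to GRCm38 (mm10) and HTSeq for counting reads that fit a single locus, retained a gene when any library had 10 or more reads, and divided counts by DESeq2 size factors. The signal values they deposited are these normalized counts, not divided by length, and the tool versions are not given in the sources used here. All values above 0 (100% in each library, within 0.05) were integers once multiplied by the size factor of their library, so that reads could be recovered. Names, coordinates and lengths came from GENCODE M21, which held 14782 of the 14924 identifiers. The 2 libraries of a genotype were distinct, since the median chi-square per gene between them was 2.02 in S100A4-/- and 1.10 in WT, where sampling noise gives 0.455.

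Genotypes were compared with limma (lmFit, eBayes with a trend) on log2(value + 1), over the 14780 genes that reached a value of 10 in 1 or more libraries. P-values were adjusted over all genes tested (Benjamini-Hochberg), and all adjusted p-values are such. The study's threshold was used (2-fold, adjusted p of at most 0.05), also with no fold minimum. The count tests of edgeR and DESeq2 on recovered reads were alternatives. The scripts were tested on simulated data. The members and lists were chosen with earlier results of these data known. Named genes are the members, *S100a4*, and in each list the most abundant gene, up to 4 genes that passed, and markers at 0; others named to show a list's range, overlapping genes and the actin genes were chosen after their values were seen. Software was DESeq2 1.42.0, limma 3.58.1 and edgeR 4.0.16 in R 4.3.3, and pandas 2.3.3, matplotlib 3.10.9 and numpy 2.4.6 in Python 3.11.15.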

Additional observations from a re-analysis of the deposited data

How the results depend on the processing

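No marker passed the threshold (2-fold and adjusted p) under any alternative, and 143 of 147 recomputed fold changes kept their sign. *Snai1* reversed to -0.12 with quantile normalization; with 1 library left out *Snai1* ranged from -0.29 to 0.62, *Snai2* from -0.67 to 0.031 and *Acta2* from -0.024 to 0.12. The cause was not tested. With no fold minimum 1 marker passed (*Cdh2*), against 0 with equal totals, quantile normalization, limma without a trend, edgeR and DESeq2 and 0 to 1 with a library left out (*Vim* at an adjusted p of 0.0268 without the second S100A4-/- library, *Zeb1* at 0.0464 without the first WT library). The replicate number as a block gave 3 (*Cdh1*, *Cdh2* and *Vim*, at adjusted p of 0.0453, 0.00496 and 0.0460); same-numbered libraries share only a number, their deviations correlating at 0.01, and the block gave 591 genes past the threshold over all genes against 550. Over all genes the count was 287 with a mean of at least 50 (fewer genes tested), 181 without a trend, 1028 with no fold minimum, and 172 to 559 with a library left out (172 without the first and 216 without the second S100A4-/- library); a lone library was then assumed to vary like the other group. The 4 other lists had 7 genes past the threshold, against 6 with DESeq2 (without *Cdh11*), 5 with quantile normalization (without *Cdh11* and *Spp1*), 3 with a mean of at least 50 (*Cldn1*, *Fbn1* and *Vcan*), 2 without a trend (*Spp1* and *Vcan*), 14 with no fold minimum, and 2 to 8 with a library left out. Promoters of 2 members held CANNTG against 1 for CACCTG or CAGGTG. With few reads, depth limits *Snai1*, *Snai2* and *Twist1*.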
